A study of Mus musculus with 12 samples.

Results

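The nucleolar and ribosome biogenesis factors followed were the genes Polr1a, Polr1b, Fbl, Nop56, Nop58, Dkc1, Nolc1, Ncl, Npm1 and Bop1. They were taken by symbol as a fixed list, 10 of the 15217 genes in the table, and all 10 passed the filter on low counts in the whole-table fit. The cells were NIH-3T3, an established line of mouse embryonic fibroblasts, labelled wild type. For 2 h they were given 4-thiouridine (4sU) at 200 or 800 µM, or none. Cells take up 4sU in place of uridine while they transcribe. SLAM-seq alkylates it with iodoacetamide, after which reverse transcription reads it as C, and this marks RNA as new. Alkylation took place in tubes on purified RNA, or within cells fixed in methanol. Temperature and duration of the reaction differed too, according to the protocols, and cannot be told apart from the procedure. There were 6 groups of 2 libraries, named A and B. No label says that these came from separate cultures, and p-values therefore cover only the spread between libraries, which may be technical.

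Ribosomes are assembled in the nucleolus. RNA polymerase I transcribes the precursor of the large ribosomal RNAs, small nucleolar ribonucleoproteins (snoRNPs) modify it and guide its cleavage, and assembly factors build it into the small (40S) and large (60S) subunits. Growing fibroblasts such as NIH-3T3 make ribosomes at a high rate, and 4sU is known to be able to disturb ribosomal RNA processing at high exposure. Ribosomal RNA itself was not analysed here: all values are for the messenger RNAs of the proteins that make it.

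Of the 10 genes, 4 carry annotated snoRNA genes inside them on the same strand: Ncl holds 3, Nop56 holds 5, Nop58 holds 4 and Dkc1 holds 1. Of these 13 snoRNA genes 12 lie within introns, and 0 of them have a row in the count table. Among 14177 protein-coding genes of the table, 244 (1.72%) hold a snoRNA gene. A snoRNA is cut from its host's intron and joins proteins that genes of this list encode. Of the sequences 4 are shown as examples that carry the short boxes marking their class. Gm24148, Gm26287 and Gm24451 carry such boxes too. In the others, among them Snord57 and Snord70, a search for the exact boxes near the ends found neither kind. The sequences come from GENCODE M21 on GRCm38 and are written 5′ to 3′ as DNA. In the first 3, capitals mark box C (TGATGA) near the 5′ end and box D (CTGA) near the 3′ end, the marks of the class bound by fibrillarin, NOP56 and NOP58. In the last, capitals mark the ACA that lies 3 bases before the 3′ end, the mark of the class bound by dyskerin.
Snord82, in an intron of Ncl, chr1:86356261-86356330, minus strand: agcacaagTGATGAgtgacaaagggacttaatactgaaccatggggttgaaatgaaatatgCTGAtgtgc
Snord110, in an intron of Nop56, chr2:130275506-130275573, plus strand: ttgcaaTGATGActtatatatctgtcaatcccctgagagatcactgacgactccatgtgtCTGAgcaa
Snord11, in an intron of Nop58, chr1:59704790-59704873, plus strand: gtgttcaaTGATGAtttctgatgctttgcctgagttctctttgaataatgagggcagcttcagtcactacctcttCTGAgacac
Snora75, in an intron of Ncl, chr1:86351169-86351301, minus strand: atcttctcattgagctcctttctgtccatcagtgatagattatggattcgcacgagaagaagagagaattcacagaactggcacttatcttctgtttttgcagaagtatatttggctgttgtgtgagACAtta

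Library totals ran from 3629634 to 7762635 counts, and the 10 genes took 0.425% to 0.555% of them. All 12 fibroblast markers had counts in every library. Their summed level was 17468 to 24523 CPM (counts scaled to a common library total, with the TMM scaling described below). S100a4 (6353 to 14010 CPM) and Vim (2758 to 6560 CPM) had the largest parts of that sum, while Lum was near the floor at 0.59 to 3.37 CPM. Of 15 markers of other cell types 10 were in the table, and their summed level was 9.32 to 20.3 CPM. In a principal component analysis the first component held 47.4% of the variance and separated tubes (-38.8 to -24.0) from fixed cells (21.4 to 45.4). Library A of fixed cells at 800 µM lay at the far end, at 45.4 against 27.9 for its partner B, and results that rest on it are given with and without it. All CPM values, those of the markers included, are scaled by TMM, a normalisation that assumes most genes do not differ between libraries. Library A of fixed cells at 800 µM had the lowest TMM factor, 0.835, against 0.926 to 1.15 in the other libraries. A lower factor gives a higher CPM for the same share of counts.

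The 10 messenger RNAs covered a wide range of abundance. Levels per length (counts per base of the deposited length, scaled to the same sum in each library) are the only ones compared between genes. Npm1 (nucleophosmin, an abundant nucleolar chaperone) was highest with a median of 998 over the 12 libraries. Ncl (nucleolin, which binds ribosomal RNA precursors) followed at 480 and Dkc1 (dyskerin, the pseudouridine synthase of H/ACA snoRNPs) at 225. Nop56 (a core protein of box C/D snoRNPs) stood at 167, Nolc1 (a phosphoprotein that shuttles snoRNPs in the nucleolus) at 106 and Nop58 (the partner of NOP56 in the same particles) at 85.2. Fbl (fibrillarin, the 2′-O-methyltransferase of box C/D snoRNPs) had 71.4 and Bop1 (a member of the PeBoW complex of 60S maturation) 40.5. The 2 large catalytic subunits of RNA polymerase I closed the order, Polr1b at 20.9 and Polr1a at 14.5. The ranges over the 12 libraries overlapped between neighbours in this order, except between Npm1 and Ncl, between Ncl and Dkc1, and between Bop1 and Polr1b. In level per length Npm1 ran from 697 to 1503, Ncl from 456 to 539, Dkc1 from 147 to 421, Nop56 from 126 to 243 and Nolc1 from 67.6 to 129. Nop58 ran from 75.4 to 149, Fbl from 51.2 to 105, Bop1 from 28.3 to 53.3, Polr1b from 14.6 to 28.0 and Polr1a from 7.93 to 23.4. The deposited length equals or nearly equals that of the longest annotated coding transcript for 8 of the 10. It is 2.01 times that length for Fbl and 1.93 times for Nop56. The levels per length of these 2 genes would be higher on the transcript's own length. The longest transcript has 8202 bases for Ncl and 9507 for Nop58, against 1633 for Npm1. Whether the cells mainly make the longest transcript was not tested. A shorter one would raise the level per length, so the order given here, that of Npm1 and Ncl included, rests on these lengths.

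The first question of the design is whether 4sU itself changed RNA levels. At the level of these genes little passed the test. Nolc1 rose in fixed cells at 200 µM, by a log2 fold of 0.58 (SE 0.13, adjusted p = 0.047), and no other of the 40 tests of a member against no 4sU, 10 genes at 2 doses in 2 procedures, passed. All p-values on counts are from edgeR's quasi-likelihood F test in 1 fit of the 12 libraries, adjusted by Benjamini-Hochberg over 11080 genes with a threshold of 0.05. In tubes 0 of 10 genes passed at 200 µM, where 3.75% of all genes did, and 0 of 10 at 800 µM, where 1.87% did. In fixed cells 1 of 10 passed at 200 µM, where 0.812% of all genes did, and 0 of 10 at 800 µM, where 2.66% did. At an unadjusted p under 0.05 the members numbered 3, 1, 2 and 3 of 10 in the same order, where 20.8%, 17.6%, 12.6% and 20.1% of all genes did. DESeq2 called 2, 0, 1 and 1. Both doses of a procedure were set against the same 2 libraries without 4sU, so their values are given side by side and are not independent. Statements below that the libraries of 1 group lay above or below those of another only describe the values. With 2 libraries a group such separation is common without any effect, and its share over all genes was not counted.

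**Figure D1:**
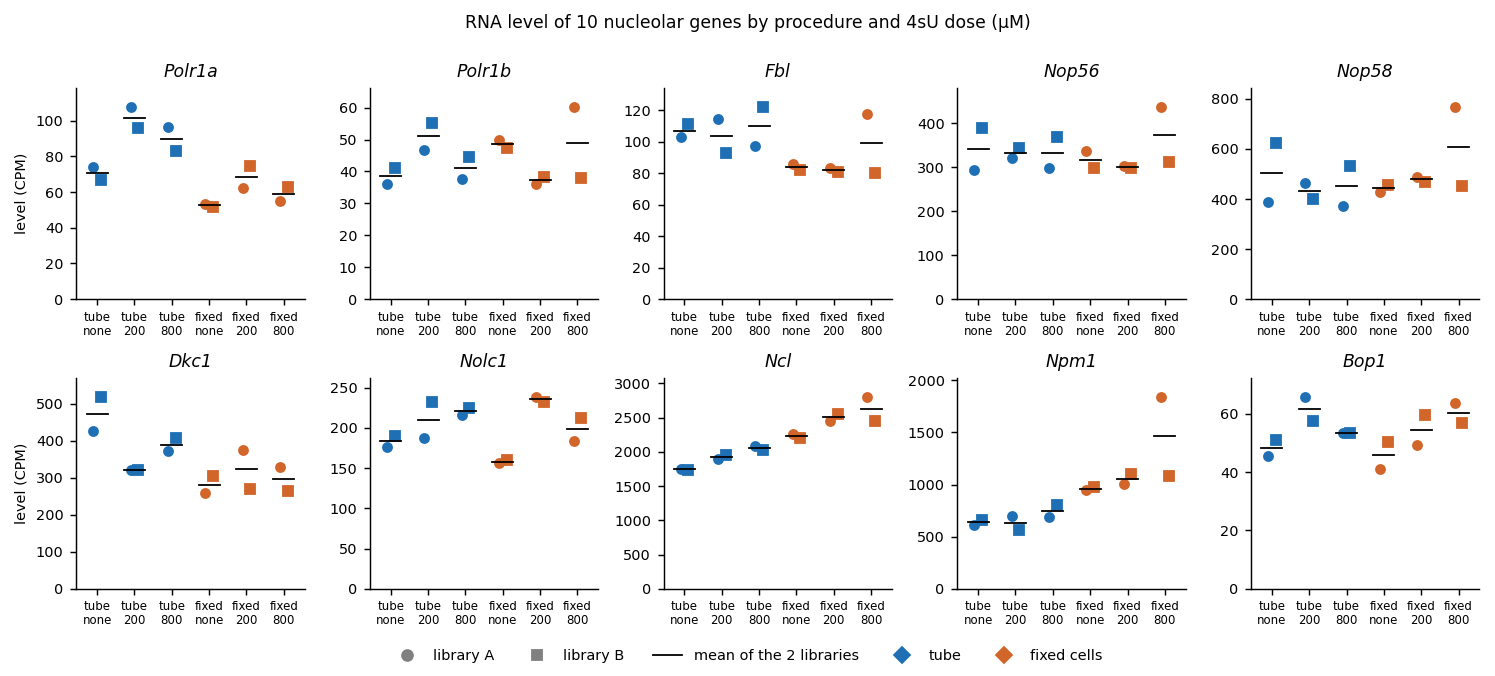
RNA levels of the 10 genes in TMM-scaled CPM (vertical axes from 0) in the 12 libraries, by procedure and 4sU dose in µM; circles are library A, squares library B and bars the mean of the 2. On this scale library A of fixed cells at 800 µM is the highest of all libraries for Polr1b, Nop56, Nop58, Ncl and Npm1. Its TMM factor, 0.835, is the lowest. By level per length it is highest only for Npm1, at 1503, and for Ncl, at 456, it is the lowest of the 12 libraries.

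The RNA polymerase I subunits come first. Polr1a (chr6:71909053-71984935, plus strand, GRCm38), which encodes the largest subunit, had 73.9 and 67.0 CPM in libraries A and B of tubes without 4sU, 107.5 and 95.9 at 200 µM, then 96.3 and 82.7 at 800 µM. Both labelled groups in tubes lay above both unlabelled libraries. In fixed cells Polr1a had 53.5 and 51.5 CPM without 4sU, 62.3 and 74.5 at 200 µM, then 54.8 and 62.6 at 800 µM, again above the unlabelled pair in each library. The log2 folds were 0.53 (SE 0.15, adjusted p = 0.051) and 0.35 (SE 0.15, adjusted p = 0.22) in tubes and 0.38 (SE 0.15, adjusted p = 0.28) and 0.16 (SE 0.15, adjusted p = 0.58) in fixed cells, at 200 and 800 µM by edgeR. None of the 4 passed. At 200 µM in tubes DESeq2 gave 0.52 with an adjusted p of 0.048. The genes Gm19078 and Gm26628 overlap Polr1a on the opposite strand, and the sources used here do not say if counting used strand.

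Polr1b (chr2:129100995-129126594, plus strand), the gene of the second largest subunit, did not follow Polr1a. In tubes it had 36.1 and 41.2 CPM without 4sU, 46.9 and 55.2 at 200 µM, then 37.7 and 44.5 at 800 µM. Fixed cells had 50.0 and 47.5 CPM without 4sU, 36.1 and 38.3 at 200 µM, then 60.1 and 37.8 at 800 µM. At 200 µM both libraries were thus above the unlabelled pair in tubes and below it in fixed cells. The log2 folds at 200 µM were 0.40 (SE 0.19) in tubes and -0.39 (SE 0.19) in fixed cells, with adjusted p of 0.25 and 0.41 by edgeR. The difference between those 2 effects was -0.79 (SE 0.27, 95% interval -1.36 to -0.22), with an unadjusted p of 0.0092 and an adjusted p of 0.41 in the same fit of 12 libraries by edgeR. It therefore did not pass over all genes.

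Of the proteins of box C/D snoRNPs, the methyltransferase gene Fbl (chr7:28169710-28179269, plus strand) had 103 and 111 CPM in tubes without 4sU, 115 and 92.6 at 200 µM, then 97.7 and 122 at 800 µM. Values in fixed cells were 85.7 and 81.9 CPM without 4sU, 83.7 and 80.7 at 200 µM, then 118 and 80.2 at 800 µM. The labelled and unlabelled libraries overlapped in all 4 comparisons, and the log2 folds lay between -0.05 and 0.24. In fixed cells at 800 µM library A lay above the unlabelled pair and library B below it.

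Nop56 (chr2:130274430-130279313, plus strand) had 294 and 388 CPM in tubes without 4sU, 321 and 344 at 200 µM, then 298 and 368 at 800 µM. In fixed cells it had 337 and 297 CPM without 4sU, 304 and 298 at 200 µM, then 436 and 311 at 800 µM. Its labelled libraries lay within or beside the unlabelled range, apart from the 436 of library A. Idh3b overlaps Nop56 on the opposite strand, and the deposited counts of Nop56 were fractional in 12 of 12 libraries, which counting whole reads alone does not give.

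Nop58 (chr1:59684971-59719044, plus strand) differed between A and B within groups. It had 390 and 622 CPM in tubes without 4sU, 464 and 402 at 200 µM, then 374 and 531.5 at 800 µM. Fixed cells gave 428 and 458 CPM without 4sU, 490 and 469 at 200 µM, then 767 and 452 at 800 µM. The log2 fold at 800 µM in fixed cells was 0.46 (SE 0.22, adjusted p = 0.26 by edgeR). Without library A of that group it was 0.08 (adjusted p = 0.88), and without library B it was 0.79 (adjusted p = 0.011), in a fit in which 10.6% of all genes passed.

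Dkc1 (chrX:75095854-75109777, plus strand), the H/ACA enzyme gene, had 428 and 519 CPM in tubes without 4sU, 321 and 321 at 200 µM, then 372 and 408 at 800 µM. All 4 labelled libraries in tubes were below the unlabelled pair. Fixed cells had 258 and 305 CPM without 4sU, 376 and 270 at 200 µM, then 331 and 264 at 800 µM, and there the groups overlapped. The log2 fold at 200 µM was -0.56 (SE 0.16, adjusted p = 0.058 by edgeR) in tubes and 0.20 (SE 0.16, adjusted p = 0.66) in fixed cells. The difference between these effects, 0.76 (SE 0.23, 95% interval 0.28 to 1.24), had an adjusted p of 0.33 by edgeR. In tubes the call at 200 µM turned on the method: DESeq2 gave -0.57 with an adjusted p of 0.020, and scaling on the 1844 genes with the least new RNA, in place of TMM, gave -0.75 with 0.015. Mpp1 overlaps Dkc1 on the opposite strand.

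Nolc1 (chr19:46075863-46085530, plus strand) had 177 and 190 CPM in tubes without 4sU, 187 and 232 at 200 µM, then 216 and 225 at 800 µM. Values in fixed cells were 156 and 160 CPM without 4sU, 239 and 232 at 200 µM, then 184 and 213 at 800 µM. In fixed cells every labelled library was above the unlabelled pair, most at the lower dose. The rise at 200 µM was a log2 fold of 0.58 (95% interval 0.30 to 0.85), and at 800 µM the log2 fold was 0.33 (SE 0.13, adjusted p = 0.17 by edgeR). The call at 200 µM was lost when any 1 of the 4 libraries was left out, with log2 folds of 0.56 to 0.63 and adjusted p of 0.26 to 0.43 by edgeR. It was lost too with the replicate letter as a block (0.58, adjusted p = 0.051 by edgeR) and under scaling on the genes with the least new RNA (0.47, adjusted p = 0.096). The effect in fixed cells minus that in tubes was 0.38 (SE 0.19, adjusted p = 0.57 by edgeR), so a difference between the procedures was not shown.

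On the TMM scale, both fixed libraries lay above both tube libraries at every dose for the genes of nucleolin and nucleophosmin. Ncl (chr1:86344719-86359400, minus strand) had 1749 and 1740 CPM in tubes without 4sU, 1902 and 1960 at 200 µM, then 2089 and 2025 at 800 µM. In fixed cells it had 2265 and 2202 CPM without 4sU, 2452 and 2558 at 200 µM, then 2803 and 2443 at 800 µM. Labelled libraries were above the unlabelled pair at each dose in each procedure, but the log2 folds of 0.15 to 0.24 did not pass (adjusted p of 0.29 to 0.62 by edgeR). Npm1 (chr11:33152287-33163206, minus strand) had 607 and 664 CPM in tubes without 4sU, 695 and 562 at 200 µM, then 686 and 808 at 800 µM. In fixed cells it had 943 and 974 CPM without 4sU, 1005 and 1097 at 200 µM, then 1841 and 1082 at 800 µM. The log2 fold of Npm1 at 800 µM in fixed cells was 0.61 (SE 0.19, adjusted p = 0.080 by edgeR). It was 0.23 (adjusted p = 0.45) without library A and 0.94 (adjusted p = 2.24e-04) without library B, so its size rests on the 1841 CPM of library A. The counts of Npm1 were fractional in 12 of 12 libraries.

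Bop1 (chr15:76452989-76477277, minus strand), whose protein pairs with PES1 and WDR12 in the PeBoW complex, had 45.5 and 51.2 CPM in tubes without 4sU, 65.8 and 57.6 at 200 µM, then 53.4 and 53.5 at 800 µM. Values in fixed cells were 41.1 and 50.4 CPM without 4sU, 49.3 and 59.6 at 200 µM, then 63.6 and 56.9 at 800 µM. Its log2 folds were positive in all 4 comparisons, from 0.14 to 0.39, and none passed (adjusted p of 0.17 to 0.70 by edgeR). Mroh1 and Scx overlap Bop1 on the opposite strand.

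**Figure D2:**
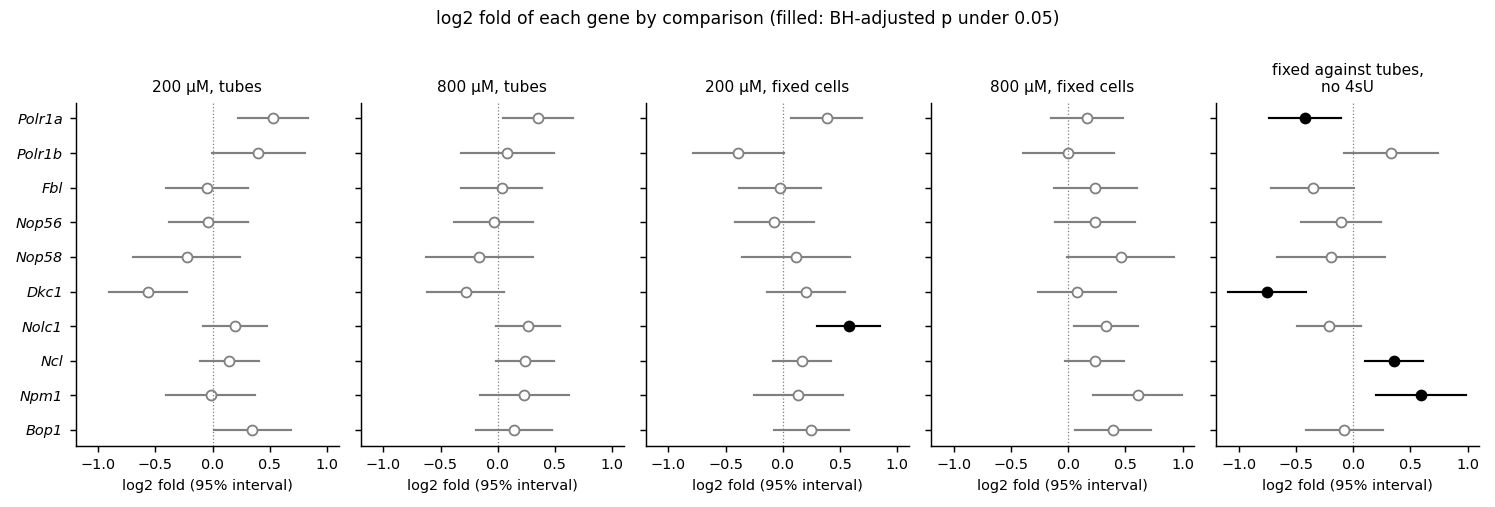
Log2 folds of the 10 genes with 95% intervals in 5 comparisons: each 4sU dose against no 4sU in tubes and in fixed cells, and fixed cells against tubes without 4sU. Filled points passed an adjusted p of 0.05; they are Nolc1 at 200 µM in fixed cells, and Polr1a, Dkc1, Ncl and Npm1 between the procedures.

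Side by side, the members' median log2 fold against no 4sU was 0.07 at 200 µM and 0.11 at 800 µM in tubes, where the median of all genes was 0.03 at both doses. In fixed cells it was 0.15 and 0.24, with a median of all genes of -0.00 at each dose. The log2 folds were positive for 5, 7, 7 and 10 of the 10 members, against 53.5%, 53.6%, 49.7% and 49.9% of all genes. At 800 µM in fixed cells, without library A, 7 of 10 were positive and the median was 0.13, against 0.05 over all genes. With single libraries left out, the members' median in tubes ran from 0.03 to 0.17 at 200 µM and from 0.03 to 0.23 at 800 µM, each with 5 to 9 members positive. Both lowest values came without unlabelled library A and both highest without unlabelled library B. In fixed cells it ran from 0.10 to 0.20 at 200 µM, without unlabelled library A and B, and from 0.13 to 0.39 at 800 µM, without labelled library A and B. Scaling on the 1844 genes with the lowest new-to-total ratio moved the median of all genes to between -0.18 and -0.11 in these 4 comparisons. It left 4, 4, 7 and 7 members positive, with medians of -0.13, -0.05, 0.04 and 0.04. Over all genes that scaling changed the calls from 262 higher and 154 lower to 78 and 554 at 200 µM in tubes, from 101 and 106 to 48 and 330 at 800 µM in tubes, from 27 and 63 to 18 and 185 at 200 µM in fixed cells, and from 86 and 209 to 40 and 715 at 800 µM in fixed cells. DESeq2 called 346 higher and 184 lower, 140 and 121, 42 and 56, and 337 and 210 in that order.

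The second question was whether the effect of 4sU differed between the procedures. Fixed minus tube, 0 of 10 members passed at 200 µM and 0 of 10 at 800 µM, and 0.0% of all genes passed at either dose by edgeR. At an unadjusted p under 0.05 there were 2 members (Polr1b and Dkc1) and 993 genes at 200 µM, and 0 members and 654 genes at 800 µM. DESeq2 called 0 members at either dose, and 11 genes and 0 genes in all. At 800 µM the largest difference among the members was that of Nop58, 0.62 (SE 0.32, 95% interval -0.04 to 1.29), which was 0.28 without library A of fixed cells at 800 µM. The step from 200 to 800 µM gave 0 of 10 members in tubes and 0 of 10 in fixed cells, against 0.0% of all genes in each by edgeR. At an unadjusted p under 0.05 it gave 0 members in tubes and 1, Npm1, in fixed cells, where 987 and 872 genes of all did, and DESeq2 called 0 members and 12 and 0 genes.

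Fixed cells differed from tubes already without 4sU. Of the 10 genes 4 passed, where 31.4% of all genes did: Npm1 and Ncl were higher in fixed cells, Dkc1 and Polr1a lower. The log2 fold of Npm1 was 0.59 (SE 0.19, adjusted p = 0.021) and that of Ncl 0.36 (SE 0.12, adjusted p = 0.032). Dkc1 fell by 0.75 (SE 0.16, adjusted p = 0.0018) and Polr1a by 0.42 (SE 0.15, adjusted p = 0.039), all by edgeR. Fbl had a log2 fold of -0.36 (adjusted p = 0.13), Polr1b 0.33 (0.21), Nolc1 -0.22 (0.23), Nop58 -0.19 (0.55), Nop56 -0.11 (0.67) and Bop1 -0.08 (0.76). For each gene that passed, both fixed libraries lay on the same side of both tube libraries in the values given above. A test on these same libraries favours such genes, so this is no separate evidence.

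These differences depend on what is taken as constant between the procedures. Scaling on the genes with the least new RNA moved the median of all genes from -0.01 to -0.35, and the calls over all genes from 1796 higher and 1684 lower to 751 and 3633. Under it Ncl (0.01, adjusted p = 0.94) and Npm1 (0.25, adjusted p = 0.26) no longer passed. Dkc1 (-1.09) and Polr1a (-0.77) stayed past the threshold, and Fbl (-0.70), Nolc1 (-0.56), Nop56 (-0.45) and Bop1 (-0.42) passed as well. A change of scaling shifts the log2 folds of all genes nearly alike. The distances above the median of all genes, 0.36 for Ncl and 0.60 for Npm1, were therefore kept by construction and show nothing further. When any 1 of the 4 unlabelled libraries was left out, Dkc1 was the 1 member that still passed each time (log2 folds of -0.90 to -0.60), while the log2 folds of Npm1 (0.53 to 0.66), Ncl (0.34 to 0.36) and Polr1a (-0.49 to -0.35) did not. Polr1a also missed the threshold by DESeq2 (adjusted p = 0.054) and by edgeR without a filter on low counts (adjusted p = 0.053).

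The other readout was the share of each messenger RNA made within the 2 h of labelling, the new-to-total ratio, deposited for the 8 libraries with 4sU. It has no background from unlabelled cells in the values used here. In RNA from a whole culture, fewer cells making a messenger RNA and less of it per cell cannot be told apart. The 10 genes spread widely. Nop56 had the highest mean ratio, 65.6% ± 2.99 (SD, n = 8 libraries over both procedures and doses), followed by Polr1b at 55.7% ± 10.3, Nolc1 at 53.5% ± 6.62, Nop58 at 50.3% ± 5.30 and Polr1a at 49.6% ± 7.12. Dkc1 at 35.7% ± 4.97 stood near the median of all genes, 35.3%, and Bop1 below it at 31.7% ± 7.23. For the ratio, all genes means the 5532 with at least 100 counts in each of the 8 labelled libraries. Ncl had 22.9% ± 3.19, Fbl 19.0% ± 5.31 and Npm1 18.5% ± 4.46. The core proteins of the same box C/D particle thus ran from the top of the list (NOP56) to near its bottom (fibrillarin).

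**Figure D3:**
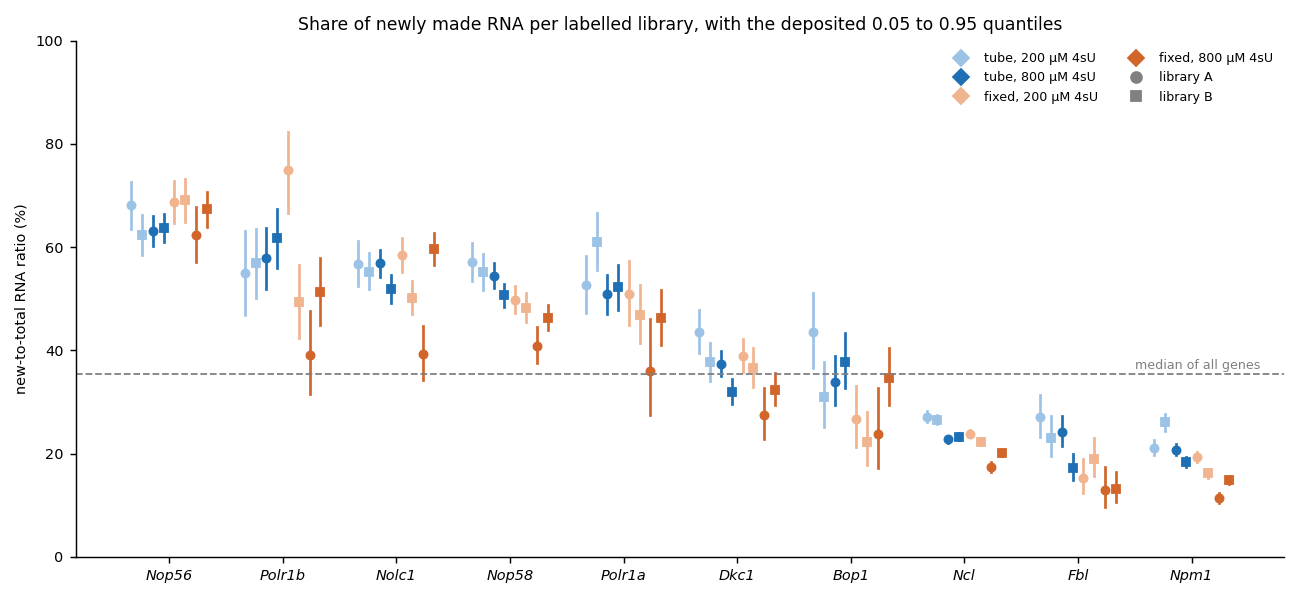
New-to-total RNA ratio of the 10 genes in percent (vertical axis) in each of the 8 labelled libraries, with bars from the deposited 0.05 to the 0.95 quantile. Genes are ordered by mean. The dashed line is the median of the 5532 genes with at least 100 counts in each of these libraries. Nop56 lies between 62.3% and 69.1% in every library, while Npm1 lies between 11.4% and 26.0%.

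Nop56 was the highest of the 10 genes in 7 of the 8 libraries. Its ratio was 68.2% and 62.3% in libraries A and B of tubes at 200 µM, 63.1% and 63.7% at 800 µM, 68.8% and 69.1% in fixed cells at 200 µM, and 62.4% and 67.3% at 800 µM. These values lie within 6.79 points of one another, less than the width of the widest deposited interval (10.5 points). The exception was library A of fixed cells at 200 µM, where Polr1b reached 74.9% against 49.3% in library B. In the other 6 libraries Polr1b ran from 39.1% to 61.8%. With 150.5 to 323 counts a library, Polr1b had wide deposited intervals, up to 16.2 points between the 0.05 and 0.95 quantiles.

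The lowest ratio belonged to Npm1 in 4 libraries and to Fbl in the other 4. Npm1 had 21.1% and 26.0% in tubes at 200 µM, 20.8% and 18.4% at 800 µM, 19.3% and 16.1% in fixed cells at 200 µM, and 11.4% and 14.8% at 800 µM. Ncl had 27.1% and 26.6% in tubes at 200 µM, 22.7% and 23.3% at 800 µM, 23.9% and 22.3% in fixed cells at 200 µM, and 17.4% and 20.1% at 800 µM. For both genes the fixed libraries lay below the tube libraries at the same dose. Fbl had 27.1% and 23.1%, 24.2% and 17.3%, 15.3% and 19.0%, and 12.9% and 13.2% in the same order. Library A of fixed cells at 800 µM gave the lowest ratio of the 8 for 8 of the 10 genes. Its median over all genes, 25.95%, was also the lowest, against 32.1% to 42.3% in the other libraries.

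Between procedures and doses, 0 of 10 ratios passed in each of 4 comparisons by limma on the logit scale, adjusted by Benjamini-Hochberg over 5532 genes with at least 100 counts in all 8 libraries. Fixed against tube, 0.615% of all genes passed at 200 µM and 0.0723% at 800 µM. For 800 against 200 µM, 0.0362% passed in tubes and 0.434% in fixed cells. At an unadjusted p under 0.05 the members numbered 2, 4, 1 and 2, while 18.1%, 19.7%, 8.53% and 17.4% of all genes did. The members' median logit differences were -0.24, -0.34, -0.17 and -0.29, beside -0.19, -0.31, -0.20 and -0.32 over all genes. Without library A of fixed cells at 800 µM the second and last of these became -0.19 and -0.14, beside -0.13 and -0.15 over all genes. For single genes, the logit difference between fixed cells and tubes at 800 µM was -0.54 (SE 0.21) for Fbl, -0.48 (SE 0.15) for Npm1, -0.36 (SE 0.12) for Nop58 and -0.26 (SE 0.09) for Ncl, with adjusted p of 0.19 to 0.23 by limma. Nop56 stood at 0.07 (SE 0.13, 95% interval -0.25 to 0.38). Without library B of fixed cells at 800 µM, which leaves the low library A alone, Ncl (-0.35, adjusted p = 0.021), Npm1 (-0.64, adjusted p = 0.041) and Nop58 (-0.47, adjusted p = 0.032) passed, 3 of 10 members where 20.8% of all genes passed. Without library A they did not, at -0.17, -0.33 and -0.25, where 0.289% of all genes passed.

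Multiplying the level by the ratio divides each messenger RNA into a new and an old part. Of Nop56, 217 ± 3.34 CPM (SD, n = 2) were new and 116 ± 19.3 old in tubes at 200 µM, and 207 ± 1.80 new and 93.5 ± 1.89 old in fixed cells at 200 µM. Its old part there was 34.0% and 29.5% of the level without 4sU. Of Ncl, 519 ± 3.66 CPM were new and 1413 ± 36.9 old in tubes at 200 µM, and 578 ± 9.97 new and 1927 ± 84.9 old in fixed cells at 200 µM. The new part of Npm1 was 147 ± 0.20 CPM in tubes at 200 µM, 145 ± 4.24 at 800 µM, 186 ± 12 in fixed cells at 200 µM and 185 ± 34.5 at 800 µM. Its old part had 482 ± 93.6, 602 ± 82.0, 865 ± 77.0 and 1277 ± 502 CPM in that order, and the last of these, 133.2% of the unlabelled level, carries the high library A. The old part of Nop58 was 37.4% and 42.7% of the unlabelled level in tubes and 55.1% and 78.6% in fixed cells, at 200 and 800 µM. The last of these also carries library A, with 453 CPM old against 243 in library B, where fixed cells at 200 µM had 244 ± 2.05. The unlabelled level of Nop58 in tubes is the mean of 390 and 622 CPM, so both tube shares carry that spread. The new and old parts were not tested.

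**Figure D4:**
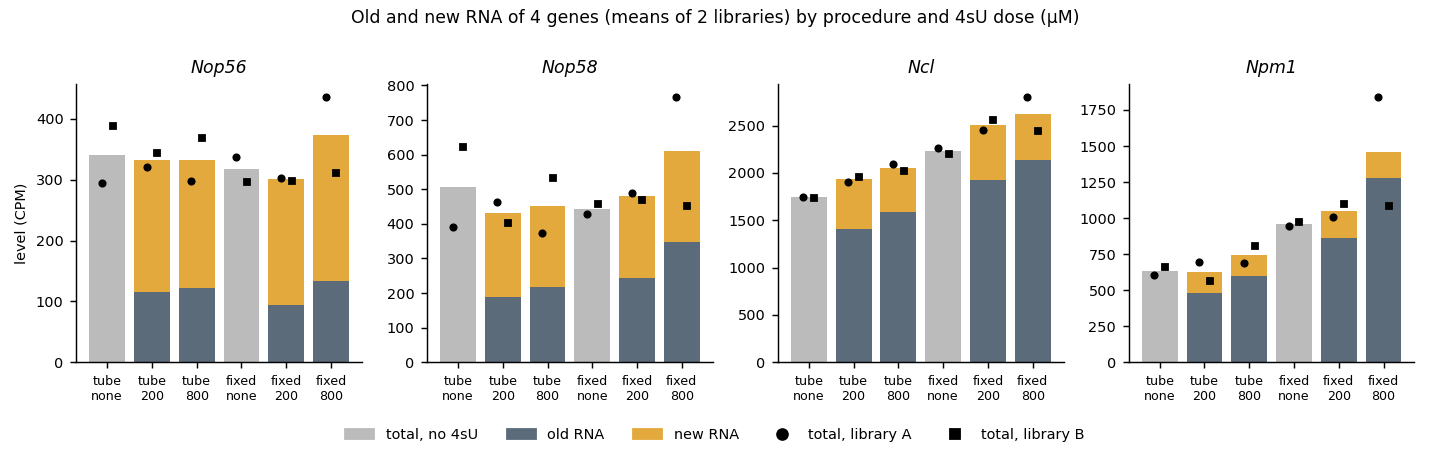
Old (dark) and new (yellow) RNA of Nop56, Nop58, Ncl and Npm1 in TMM-scaled CPM, as stacked means of 2 libraries by procedure and 4sU dose in µM; grey bars are totals without 4sU and points the total of each library. New RNA is most of Nop56 in each labelled group, while group means of the Npm1 ratio are 13.1% to 23.6%.

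Uridine is the base that 4sU replaces, and its share of the longest coding transcript is given here in the order of the ratios. From the highest ratio down it was 20.8% for Nop56, 25.1% for Polr1b, 19.5% for Nolc1, 30.8% for Nop58 and 22.6% for Polr1a. It was 25.6% for Dkc1, 20.1% for Bop1, 27.9% for Ncl, 21.4% for Fbl and 26.2% for Npm1, where the median coding gene had 24.4%. Its part in the ratios was not tested, nor whether the longest transcript is the one mainly made in these cells.

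The 10 levels did not move as 1 group across the 12 libraries. Of 45 pairs of genes 29 had a positive Pearson correlation of log2 CPM, with a median of 0.25. Ncl with Npm1 (0.91) and Nop56 with Nop58 (0.83) were the highest pairs, and Polr1a with Npm1 (-0.66) and Ncl with Dkc1 (-0.63) the lowest. The points share library scaling and the difference between procedures, so these are descriptions without a test. On the TMM scale, the mean of the standardised log2 levels of the 10 genes was highest in library A of fixed cells at 800 µM, at 1.12. It was between -0.59 and 0.46 in the other 11. Outside the nucleolar lists, the genes whose log2 CPM over the 12 libraries was most like that mean were Hspa5 (r = 0.93), Rnaseh2b (0.92), Coro1c (0.92), Glrx5 (0.92) and Ddost (0.91). Among the members the correlation with their own mean ran from 0.14 for Polr1a to 0.80 for Nop56.

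Around these 10 genes, 154 other genes of ribosome synthesis were tested in 5 sets: 17 of the RNA polymerase I machinery, 13 snoRNP partners and assembly factors, 47 of the small subunit processome and 40S maturation, 59 of PeBoW and 60S maturation, and 18 of the nuclear exosome and ribosomal RNA trimming. In tubes 5 rose and 1 fell at 200 µM (3.9%, beside 3.75% of all genes), and 3 rose and 1 fell at 800 µM (2.60%, beside 1.87%). In fixed cells 1 rose and 0 fell at 200 µM (0.649%, beside 0.812%), and 3 rose and 2 fell at 800 µM (3.25%, beside 2.66%). At each dose in each procedure the share was near that of all genes. The medians of the list were 0.05, 0.05, 0.04 and 0.03, and turned negative, -0.14, -0.12, -0.07 and -0.16, under scaling on the genes with the least new RNA. Under that scaling the calls became 1 higher and 6 lower, 1 and 6, 0 and 2, and 1 and 17.

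Gnl3 (nucleostemin, a nucleolar GTPase) had the clearest rise, in tubes. It had 191 and 173 CPM without 4sU, 375 and 354 at 200 µM, then 347 and 295 at 800 µM. The log2 folds were 1.01 (SE 0.14, adjusted p = 0.0014) and 0.82 (SE 0.14, adjusted p = 0.0064) by edgeR. Fixed cells had 250 and 218 CPM without 4sU, 262 and 283 at 200 µM, then 236 and 294 at 800 µM, and there Gnl3 did not pass. The effect in fixed cells minus that in tubes passed for 0 of the 154 genes at either dose. A difference between the procedures was therefore not shown for Gnl3. Its new-to-total ratio was 81.9% to 100.0% in the 8 libraries. The rise at 200 µM passed under every other fit tried and without any 1 of the 4 libraries. At 800 µM it passed without any 1 library in 2 of 4 cases.

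Pes1, the partner of BOP1 in the PeBoW complex, rose in tubes by 0.61 (SE 0.15, adjusted p = 0.035) at 200 µM and 0.68 (SE 0.15, adjusted p = 0.024) at 800 µM by edgeR. It had 51.0 and 46.8 CPM without 4sU, 81.7 and 67.7 at 200 µM, then 74.3 and 82.2 at 800 µM. Both calls were lost when any 1 library was left out and under scaling on the genes with the least new RNA. Nop53, a 60S assembly factor, rose by 0.55 (SE 0.13, adjusted p = 0.033) at 200 µM in tubes, where the helicase gene Ddx10 fell by 0.80 (SE 0.17, adjusted p = 0.016). Both passed in 1 of 4 fits without 1 library, and Nop53 lost its call on the libraries compared alone (adjusted p = 0.057) and under scaling on the genes with the least new RNA (adjusted p = 0.11 by edgeR). At 800 µM in tubes the helicase gene Ddx47 fell by 0.69 (SE 0.14, adjusted p = 0.017) and lost its call when any 1 library was left out. In fixed cells Ddx47 was lower at 800 µM as well, at 48.4 and 48.9 CPM against 61.6 and 65.6 without 4sU, but did not pass. Taf1d, a subunit of the factor that selects the ribosomal DNA promoter, rose at 800 µM in tubes by 0.52 (SE 0.12, adjusted p = 0.035) and in fixed cells by 0.54 (SE 0.12, adjusted p = 0.025). Under scaling on the genes with the least new RNA neither rise of Taf1d passed (adjusted p of 0.12 and 0.092 by edgeR), and with 1 library left out the rise passed in 0 of 4 fits in tubes and 1 of 4 in fixed cells.

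In fixed cells at 200 µM the 1 call of the list was Senp3, a nucleolar SUMO protease, at 1.49 (SE 0.34, adjusted p = 0.047 by edgeR). It had 13.7 and 15.7 CPM without 4sU against 47.6 and 35.4, and the call was lost when any 1 library was left out. At 800 µM Nufip1, an assembly factor of box C/D snoRNPs, fell by 1.27 (SE 0.20, adjusted p = 0.0027). It had 35.3 and 37.1 CPM without 4sU against 14.4 and 15.6 at 800 µM, with 34.5 and 23.0 at 200 µM. In tubes Nufip1 was lower at 800 µM as well, at 19.9 and 18.9 CPM against 34.2 and 29.7 without 4sU, but did not pass. Exosc7, of the RNA exosome, fell in fixed cells by 0.77 (SE 0.18, adjusted p = 0.030) at 800 µM. Wdr46 rose by 0.69 (SE 0.16, adjusted p = 0.029) and Rsl24d1 by 0.65 (SE 0.14, adjusted p = 0.016), all by edgeR. The fall of Nufip1 passed in 3 of 4 fits without 1 library, and that of Exosc7 in 1 of 4. The rise of Wdr46 passed in 1 of 4 and that of Rsl24d1 in 2 of 4. Without library A of fixed cells at 800 µM the list had 1 rise and 2 falls there (1.95%, beside 2.08% of all genes), and without library B 19 and 5 (15.6%, beside 10.6%).

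Between the procedures without 4sU, 46 of the 154 genes were higher in fixed cells and 11 lower (37.0%, beside 31.4% of all genes), with a median of 0.16. The direction of this list depends on the scaling: on the genes with the least new RNA it had 21 higher and 44 lower and a median of -0.19, where the median of all genes was -0.35. Polr1c and Polr1d, small subunits shared by RNA polymerases I and III, rose by 1.03 (SE 0.13, adjusted p = 1.62e-05) and 1.18 (SE 0.15, adjusted p = 1.96e-05) by edgeR. Polr1d had 136 and 109 CPM in tubes against 272 and 284 in fixed cells, unlike the large subunit gene Polr1a, which fell. Imp3, of the small subunit processome, rose by 0.98 (SE 0.13). Ddx56 fell by 0.75 (SE 0.13), Tcof1 (treacle, which links RNA polymerase I to ribosomal DNA) by 0.75 (SE 0.16) and Riok1, a kinase of 40S maturation, by 0.61 (SE 0.15). These 6 kept their direction and their call under scaling on the genes with the least new RNA, at 0.69, 0.84, 0.63, -1.09, -1.09 and -0.95. Over all other fits, those without 1 library included, Tcof1 ran from -1.09 to -0.54 and Riok1 from -0.95 to -0.47. Riok1 did not keep its call in every one of them.

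In the ratio, 130 of the 154 genes were tested, and 2 passed in fixed cells against tubes at 200 µM. Zfp622, a 60S maturation factor, had 79.4% and 83.0% in tubes and 100.0% in both fixed libraries, a logit difference of 3.82 (SE 0.34, adjusted p = 0.0079 by limma) with both fixed values set at the limit of 0.005 from 1. It passed in 2 of 4 fits without 1 library and missed the threshold on the untransformed ratio (adjusted p = 0.059 by limma). Sdad1 had 97.1% and 96.7% in tubes and 85.4% and 83.0% in fixed cells, a logit difference of -1.76 (SE 0.24, adjusted p = 0.032 by limma), and it lost its call when any 1 library was left out. In the other 3 comparisons 0 of 130 passed. The median mean ratio was 61.0% in the 11 genes of the RNA polymerase I machinery, 49.5% in the 53 of PeBoW and 60S maturation, 44.1% in the 41 of the small subunit processome, 43.5% in the 15 of the exosome and 37.1% in the 10 snoRNP partners, so Nop56 and both polymerase subunits were not alone above the 35.3% of all genes.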

How the data were processed

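Total RNA was measured by SLAM-seq in 12 libraries. The deposited table of 15217 genes gives, per the file headers, expected counts (of each library's values 16.2% to 22.0% were not whole), which were rounded to whole numbers for testing. For the 8 labelled libraries the authors deposited the new-to-total ratio as a fraction (maximum a posteriori value, mean and quantiles). The deposited alpha and beta values, scores that describe that fraction's distribution, were not used further. STAR 2.7.10b, Bowtie2 2.3.0 and cutadapt are named in the submitters' processing notes. Genome build, annotation, counting and ratio estimator: not given in the sources used here. Gene IDs were matched to GENCODE M21 on GRCm38 (15185 found, 32 not), and all coordinates are from there.

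The test of counts was that of edgeR 4.0.16 under R 4.3.3 (quasi-likelihood, TMM, filterByExpr with a minimum count of 10 and total of 15, 11080 genes kept, 6 residual degrees of freedom, common biological coefficient of variation 12.3%), in 1 fit of 6 groups. Ratios were tested with limma 3.58.1 (trend) on the logit, limited to 0.005 from 0 and 1. Both were tested on simulated data. DESeq2 1.42.0, other scalings and filters, single libraries left out and a replicate block were alternatives.

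Named are all 10 genes, from the 154 others at most the 3 rises and 3 falls with the smallest p in a comparison, and 5 genes most like the members' mean. The members and lists were chosen with earlier results of these data known.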

Additional observations from a re-analysis of the deposited data

How the results depend on the processing

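Of 130 results of single genes, 5 passed the threshold. Their 1310 values under the alternatives gave 1265 on the same side of it, 23 that passed where the result had not, and 22 that no longer passed. None changed direction where either value passed, and 89 values changed sign with neither past the threshold. Not all of these were small. Between the procedures without 4sU, Nop58 went from -0.19 to 0.19 without unlabelled library B of tubes. Counts of members past the threshold moved as follows. At 200 µM in tubes (0) there were 2 without a filter on low counts, 2 by DESeq2, 1 on the libraries compared alone and 1 on scaling to the genes with the least new RNA. At 200 µM in fixed cells (1) there were 0 on that scaling, and 0 to 0 with single libraries left out. At 800 µM in fixed cells (0) there were 2 without a filter, 1 by DESeq2 and 0 to 2 with single libraries left out. For the difference between procedures at 200 µM (0) there was 1 without a filter, Dkc1 at 0.77. Between procedures without 4sU (4) there were 3 by DESeq2, 3 without a filter, 5 on the libraries compared alone, 6 on that scaling and 1 to 1 with single libraries left out. The step from 200 to 800 µM in fixed cells (0) gave 0 to 2, with Npm1 (0.81) and Polr1b (0.69) passing without library B at 800 µM, where 4.28% of all genes passed. The ratio gave 0 to 3 for fixed against tube at 800 µM and 0 to 1 for the step in fixed cells, where Ncl (-0.35) passed without library B at 800 µM. Without that library 1150 and 1029 of 5532 genes passed in these comparisons, against 4 and 24 with it. The cause of these moves was not tested. A group left with 1 library was assumed to vary like the others.

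No pairing of the libraries by the letters A and B was visible in the levels: the A minus B differences of 2 groups correlated at -0.104 to 0.095 over genes. That cannot show whether libraries of the same letter were handled together. A replicate block changed 1 count, to 0 members at 200 µM in fixed cells, where Nolc1 had 0.58 with an adjusted p of 0.051 by edgeR. Pairing A with B between the fixed 200 and 800 µM groups, added after the data were seen, gave 0 members and 3 genes in all.

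The counts of members above stand beside counts over all genes that moved too. The main fit called 416, 207, 90 and 295 genes against no 4sU, and 3480 between the procedures without 4sU. Without a filter, the genes called were 854, 482, 252 and 816 against no 4sU and 3700 between the procedures. They were 76 and 24 for the differences between procedures in the effect of 4sU, and 92 and 127 for the dose steps. On the libraries compared alone, 383 and 400 genes were called at 200 and 800 µM in tubes, 652 and 40 in fixed cells, and 4113 between the procedures. DESeq2 called 3146 between the procedures, and scaling on the genes with the least new RNA gave 4384. With 2 libraries a group, the SE of 0.12 to 0.22 on a member's log2 fold against no 4sU limits what these tests can show.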
